A study of Mus musculus with 7 samples.

Results

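The genes described here encode 32 proteins of the endoplasmic reticulum: chaperones, folding enzymes, the sensors and transcription factors of the unfolded protein response, and the machinery that degrades misfolded proteins. The gene names came from a fixed list, which was proposed with earlier results of these arrays known. For each gene the probe set annotated to that symbol alone was chosen by its mean signal over the 7 arrays, the highest being taken, so the measured value behind the choice ignored the groups. All 32 genes of the list had such a probe set, out of 18193 genes named in this way on the array, and all 32 passed the filter on low signals that left 12713 genes. Every one of them lay above the highest bacterial control probe set on all 7 arrays.

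RNA of mouse carotid artery was hybridised to Affymetrix Mouse 430 2.0 arrays. All animals were ApoE-/+, carrying 1 null allele of the apolipoprotein E gene. The wild-type mother group has 3 arrays, from a normocholesterolemic dam crossed with an ApoE-/- sire. The ApoE-null mother group has 4, from a hypercholesterolemic ApoE-/- dam crossed with a wild-type sire. The study asked whether the cholesterol level of a parent bears on the offspring's susceptibility to atherosclerosis. Strain, age, sex and pooling are not given in the labels, and nothing says that each array came from its own animal, so the p-values measure only the spread between these arrays. Since both parents differ between the crosses, maternal and paternal effects cannot be told apart, and neither can a batch that followed the crosses, since the labels name none.

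Proteins that enter the secretory pathway fold in the endoplasmic reticulum with the help of chaperones, and a matrix-producing vessel wall sends large amounts of elastin and collagen through it. When unfolded proteins build up, the sensors IRE1 (Ern1), PERK (Eif2ak3) and ATF6 switch on the unfolded protein response. IRE1 splices the Xbp1 message, PERK slows translation and favours the translation of Atf4, and ATF6 is cut to release a transcription factor. Together they raise the transcription of chaperones and of degradation genes, in part through stress elements in the promoters of these genes. The signals used here do not report Xbp1 splicing, or the phosphorylation or cleavage of the sensors.

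The promoters of the members were searched for these elements because the response is known to act through them. RefSeq promoters of build GRCm38.p6, each with 250 bases before and 50 after a gene's start, were at hand for 28 of the members, in 31 windows. The endoplasmic reticulum stress element was taken as CCAAT, then 9 bases of any kind, then CCACG, on either strand. It occurred in 9 of the 28 members, and in 37 of the 27025 genes of the table (0.137%), which have 32851 promoters. The shorter form, ATTGG, 1 base and CCACG, where ATTGG is CCAAT read on the other strand, occurred in 2 more members and in 12 genes in all (0.0444%). The matches of 8 members are shown 5′ to 3′ on the strand of the element, with its fixed bases in capitals, 8 flanking bases on each side in lower case, and the coordinates of the element without the flanks. Creld2 and Dnajb11 come first because their groups did not overlap, Hspa5 because it is the classical target, and the others to show how the spacer varies.

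Creld2 (chr15:88819520-88819538, - strand, centre 117 bases before the start): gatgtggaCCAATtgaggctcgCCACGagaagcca
Dnajb11, short form (chr16:22857852-22857862, + strand, centre 12 bases after the start): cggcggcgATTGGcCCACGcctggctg
Hspa5 (chr2:34772025-34772043, + strand, centre 56 bases before the start): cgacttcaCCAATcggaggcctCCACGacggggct
Dnajc3 (chr14:118937827-118937845, + strand, centre 96 bases before the start): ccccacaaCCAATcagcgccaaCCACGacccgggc
Pdia6 (chr12:17266491-17266509, + strand, centre 89 bases before the start): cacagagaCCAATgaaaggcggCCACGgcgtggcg
Hsp90b1 (chr10:86705533-86705551, + strand, centre 98 bases before the start): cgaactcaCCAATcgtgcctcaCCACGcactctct
Calr (chr8:84847075-84847093, + strand, centre 153 bases before the start): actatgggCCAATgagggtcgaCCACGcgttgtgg
Herpud1, short form (chr8:94386377-94386387, + strand, centre 47 bases before the start): gggcgctgATTGGgCCACGttggacac

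Hsp90b1 held a second match, and Canx, Derl3 and Syvn1 held 1 each. The unfolded protein response element (TGACGTGG), found in 0.714% of genes, and the amino acid response element bound by ATF4 (TGATG, 1 base, AAT), found in 1.08%, had 0 matches among the members. A match describes letters in the window and is not evidence that a factor binds there. No genome positions of the probe sets were used.

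**Figure D1:**
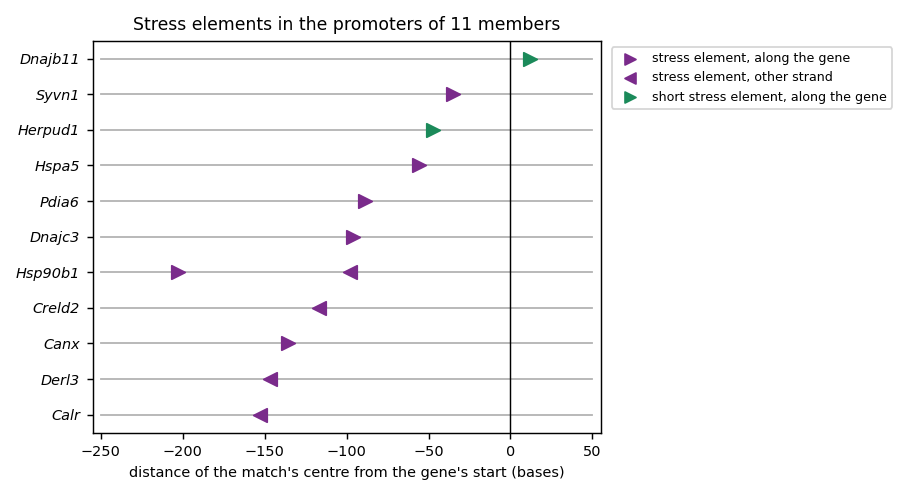
Position of each stress element match in the promoters of 11 members, as the distance of its centre from the gene's start in bases; arrowheads give the strand relative to the gene and colours the 2 forms. All matches lie before the start except that of Dnajb11, 12 bases after it.

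Wild-type mother 2 differed most from the other arrays, in RNA quality and in what the sample held. Its ratio of 3 prime to 5 prime Gapdh signal was 7.80, against 5.03 to 6.56 on the other 6 arrays. Its signal of Xist, a gene expressed in female cells, was 41.2, against 5174.1 to 5930.9. The labels give no sex, and the part of sex in the values of this array was not tested. The sum of 6 skeletal muscle markers was 2042 on it, against 90.7 to 195.7. Median signals were 36.0 to 42.1, and all arrays had been scaled to 1 trimmed mean. Smooth muscle markers, which check the labelled tissue, were present on all arrays, with summed signals of 23310 to 30650 in the wild-type mother group and 24150 to 29840 in the ApoE-null mother group.

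None of the 32 genes passed the test between the crosses over all 27027 probe sets kept. In limma with Benjamini-Hochberg adjustment 0 members were called, and their adjusted p ran from 0.458 to 0.991. Over all probe sets 0.0037% were called higher and 0% lower in the ApoE-null mother group. At an unadjusted p under 0.05, 7 members were lower (21.9%; Manf, Creld2, Hspa5, Dnajb11, Edem1, Sec61b and Fkbp2) and 0 higher, while 3.96% of all probe sets were lower and 4.3% higher. Lower in the ApoE-null mother group without any overlap between the groups were 6 members (18.8%), namely Manf, Creld2, Dnajb11, Fkbp2, Sec61b and Derl2, and 0 members were higher without overlap. Over all probe sets 4.01% were lower without overlap and 4.01% higher. The members were proposed with results of these arrays known, so the excess over these shares is a description. The median log2 difference of the members, always the ApoE-null mother group less the other group, was -0.12 with 21 of 32 negative, against -0.01 and 51.2% negative over all genes kept. Leaving 2 arrays in the wild-type mother group makes such gaps more frequent for all genes. The count of 6 became 11 when wild-type mother 1 was dropped (10 lower and 1 higher; 34.4%, against 18.2% of all probe sets in either direction) and 12 when number 2 was (10 lower and 2 higher; 37.5% against 18.7%). Without wild-type mother 3 it was 7 (21.9% against 14.9%). Without ApoE-null mother 1 it was 7 (21.9% against 13.8%) and without number 2 it was 8 (25.0% against 10.9%). Without ApoE-null mother 3 it was 6 (18.8% against 10.6%) and without number 4 it was 7 (21.9% against 15.6%).

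**Figure D2:**
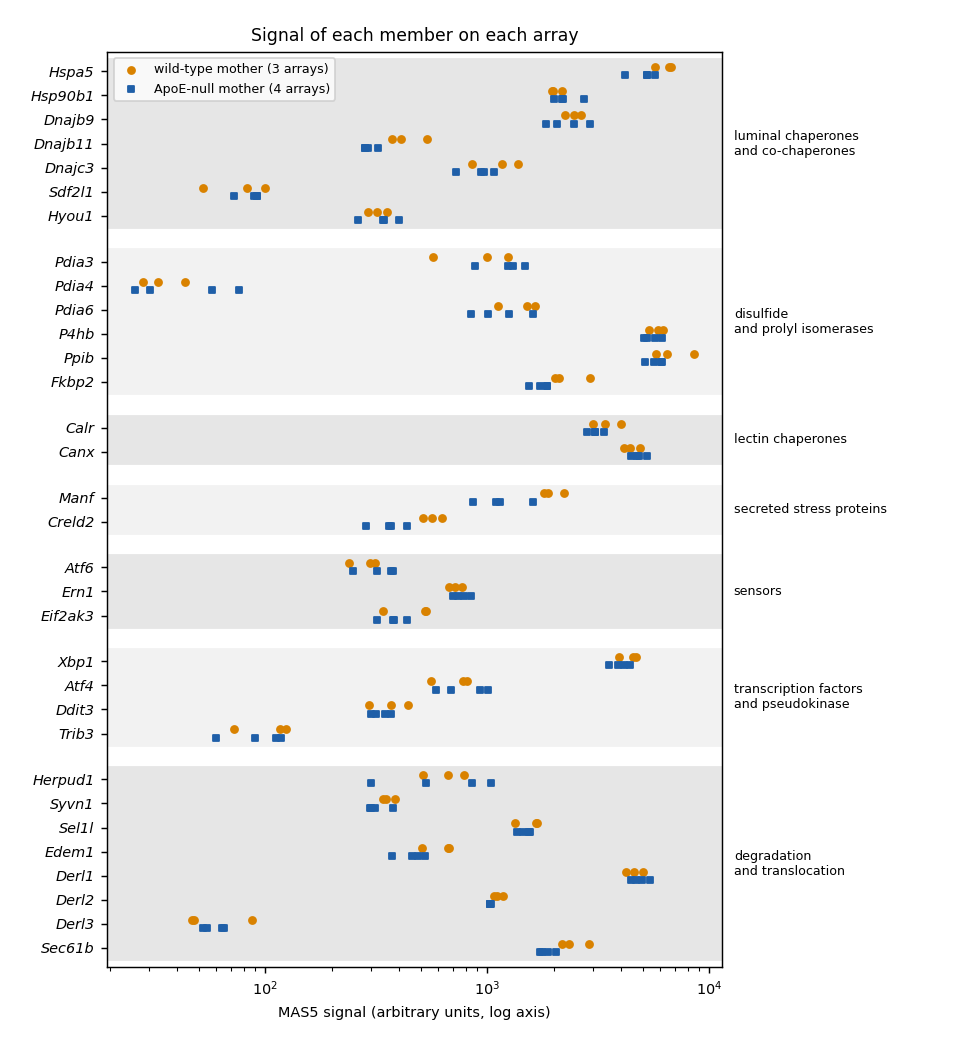
MAS5 signal of each of the 32 members on each array, on a log axis, grouped by role; circles are the 3 wild-type mother arrays and squares the 4 ApoE-null mother arrays. The squares of Manf, Creld2, Dnajb11, Fkbp2, Sec61b and Derl2 all lie left of the circles, and the groups of the other 26 overlap.

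The secreted stress proteins had the widest gap between the crosses. Manf encodes a small protein that is held in the reticulum and released when its calcium or folding capacity is disturbed. Its signals were 2205.2, 1792.2 and 1866.0 on the wild-type mother arrays and 863.9, 1599.2, 1091.4 and 1142.8 on the ApoE-null mother arrays. ApoE-null mother 2 came closest to the other group and number 1 lay farthest from it, with no overlap. The means were 1954 ± 220.3 (SD, n = 3) and 1174 ± 308.1 (SD, n = 4), a log2 difference of -0.76 (SE 0.19, 95% interval from -1.18 to -0.35; limma, adjusted p = 0.458). On the log2(signal + 2) scale this is 0.589 of the wild-type mother level.

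Creld2, a stress-induced secreted protein rich in cysteines, followed the same order of arrays. It had 624.0, 512.3 and 564.5 in the wild-type mother group and 282.6, 432.4, 359.9 and 366.0 in the ApoE-null mother group. The groups did not overlap, and ApoE-null mother 1 was again the lowest and number 2 the highest of its group. Its log2 difference was -0.66 (SE 0.17, 95% interval from -1.04 to -0.29; limma, adjusted p = 0.459). When each array was left out in turn, Manf stayed between -0.92 and -0.63 and Creld2 between -0.76 and -0.55. Each of these genes has 1 probe set, so no second reading on the array was at hand.

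Among the 7 luminal chaperones and co-chaperones 4 were negative, with a median of -0.10 that ran from -0.21 to 0.01 over the alternative analyses, and Hspa5 and Dnajb11 were lower at an unadjusted p under 0.05. Hspa5 encodes BiP, the main Hsp70 chaperone of the reticulum, which also keeps the sensors inactive. Its signals were 6543.4, 6677.0 and 5689.6 in the wild-type mother group and 4172.3, 5704.3, 5249.2 and 5242.6 in the ApoE-null mother group. The groups overlapped by a narrow margin, between wild-type mother 3 and ApoE-null mother 2. The log2 difference was -0.31, with a 95% interval from -0.60 to -0.02 (limma, adjusted p = 0.593). Another 2 probe sets of Hspa5, both with lower signals, gave -0.19 and 0.19, so its 3 probe sets differed in sign.

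Dnajb11, a J-domain protein that brings unfolded clients to BiP, had 534.4, 372.8 and 409.8 in the wild-type mother group and 280.4, 290.4, 282.2 and 321.8 in the ApoE-null mother group. The ApoE-null mother arrays were tightly grouped, all below the other arrays. Its log2 difference was -0.56 (SE 0.16; limma, adjusted p = 0.485), and -0.41 without wild-type mother 1, the highest array. Dnajc3, another J-domain partner of BiP, had overlapping groups and a log2 difference of -0.27, which was -0.12 when wild-type mother 1 was dropped and -0.46 when number 2 was.

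The other luminal chaperones showed no gap. Hsp90b1, the Hsp90 of the reticulum, had 2173.6, 1965.1 and 1959.5 against 2159.9, 2188.2, 2719.2 and 1992.1. Only ApoE-null mother 3 stood above the rest, and the log2 difference was 0.15, with a 95% interval from -0.15 to 0.45. The second Hsp90b1 probe set gave -0.38, so the sign of this gene depends on the probe set. Hyou1, which exchanges the nucleotide of BiP, was at 0.05 and turned negative when wild-type mother 1 (-0.02) or ApoE-null mother 2 (-0.04) was dropped and by its unmarked probe set (-0.27). Dnajb9, a J-domain protein that represses IRE1, was at -0.10. Sdf2l1, a partner of Dnajb11, was at 0.18 and -0.08 without wild-type mother 2, on which it had its lowest signal (52.5).

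Of the 6 disulfide and prolyl isomerases 4 were negative, with a median of -0.16. Enzymes that rearrange disulfide bonds did not share a sign. Pdia3, which works on glycoproteins held by calnexin and calreticulin, had 1241.8, 565.8 and 997.1 in the wild-type mother group and 876.4, 1237.0, 1307.1 and 1476.1 in the ApoE-null mother group. Its log2 difference of 0.44 was the highest of the members, and the low value of wild-type mother 2 carried much of it, since it was 0.11 without that array. The mean of its kept probe sets gave 0.09. Pdia4 was dim, at 28.2 to 43.5 and 25.9 to 76.4, and its log2 difference of 0.32 had an interval of -0.52 to 1.15. Pdia6 was at -0.30, with signals of 1112.6 to 1640.8 in the wild-type mother group and 844.2 to 1596.3 in the ApoE-null mother group. P4hb, the archetypal protein disulfide isomerase and also a subunit of the collagen prolyl hydroxylase, was the steadiest of the group, at 5358.2 to 6176.6 and 5085.0 to 6139.8, with a log2 difference of -0.07 and an interval of -0.32 to 0.18.

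The prolyl isomerases, which turn the bonds before proline residues, were both negative. Fkbp2 had 2104.5, 2905.2 and 2018.8 in the wild-type mother group and 1853.7, 1538.7, 1722.2 and 1852.9 in the ApoE-null mother group. Its groups did not overlap, but wild-type mother 2 stood far above the others. The log2 difference was -0.41 (SE 0.15; limma, adjusted p = 0.55), and -0.25 without wild-type mother 2. Ppib, which acts on procollagen, was also highest on wild-type mother 2, at 8478.1 against 5721.5 and 6411.9 in its group and 5128.6 to 6120.2 in the other. Its log2 difference of -0.24 was -0.08 without that array.

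Calr and Canx, the lectin chaperones that hold freshly glycosylated proteins, had overlapping groups. Calr was at 2989.9 to 3973.5 in the wild-type mother group and 2797.9 to 3364.0 in the ApoE-null mother group, a log2 difference of -0.17. Its other 2 probe sets gave -0.17 and -0.09. Canx was at 4132.1 to 4880.1 and 4411.1 to 5248.7, a log2 difference of 0.10, with a 95% interval from -0.15 to 0.36.

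**Figure D3:**
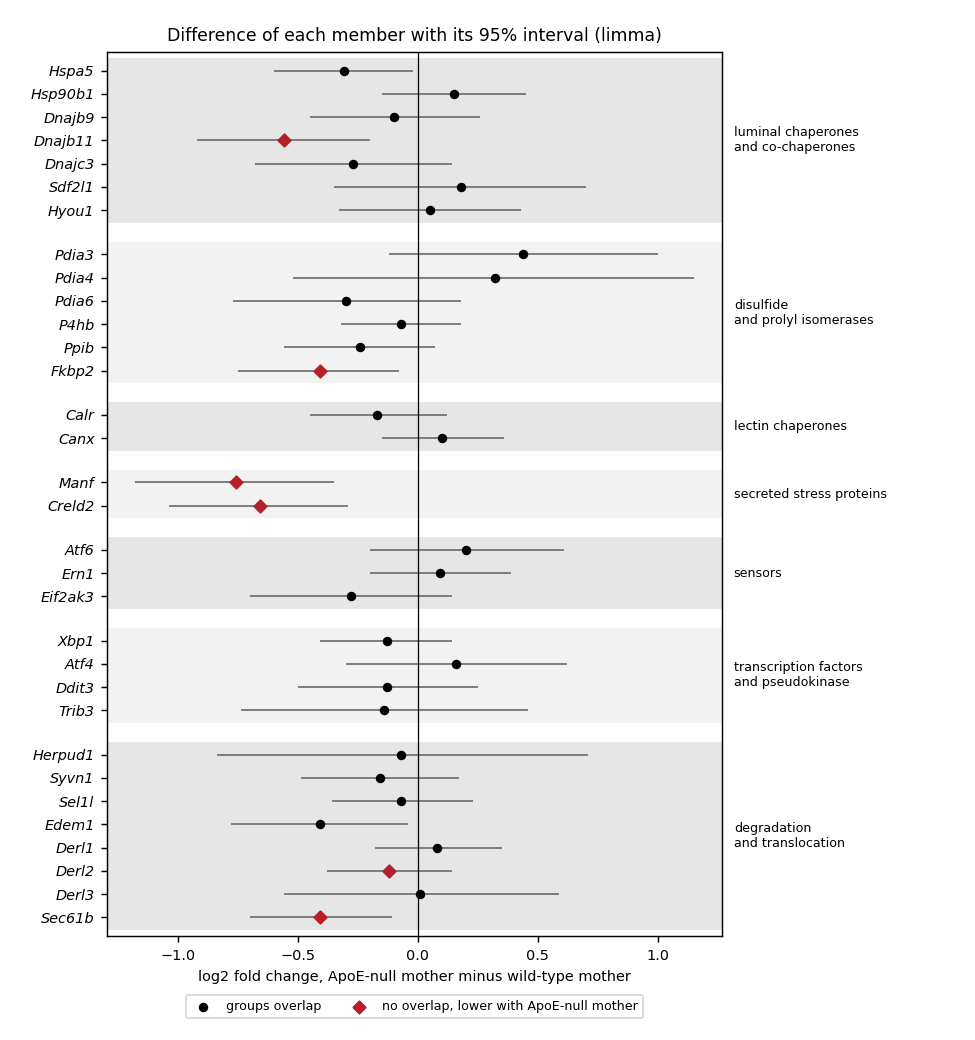
Log2 difference of each member (ApoE-null mother group less wild-type mother group) with its 95% interval from limma, grouped by role; red diamonds mark genes whose groups did not overlap. Intervals of 25 of the 32 members include 0, and Manf and Creld2 lie farthest to the left.

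The sensors of the response had overlapping groups, and 1 of 3 was negative. Ern1 had signals of 765.4, 673.5 and 711.8 in the wild-type mother group and 847.2, 699.7, 738.1 and 781.3 in the ApoE-null mother group, a log2 difference of 0.09, with a 95% interval from -0.20 to 0.39. Eif2ak3 was at 525.1, 337.9 and 531.1 against 316.9, 379.6, 376.3 and 436.2. Its low array in the first group was wild-type mother 2, without which its log2 difference of -0.28 became -0.49. Atf6 was at 0.20 by its strongest probe set, while a dimmer probe set gave -0.50 without overlap of the groups, and the mean of both kept probe sets was -0.15.

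Of the 4 genes for transcription factors and a pseudokinase 3 were negative, with a median of -0.13. Xbp1 had 3898.1, 4661.9 and 4512.5 in the wild-type mother group and 3519.4, 4405.7, 4106.8 and 3860.2 in the ApoE-null mother group. The groups overlapped, and its 4 probe sets gave log2 differences of -0.19 to -0.11. Atf4 had 773.8, 555.2 and 806.0 against 588.1, 688.0, 921.5 and 1005.6, a log2 difference of 0.16 that was -0.01 without wild-type mother 2. A dimmer Atf4 probe set, open to cross-hybridisation by its mark, gave 0.54, with 269.3 to 391.9 below 444.5 to 553.7. The probe set used for Trib3 carries the same mark. Those used for Hyou1, Canx, Xbp1, Syvn1 and Derl1 carry another such mark. Ddit3, which encodes the pro-apoptotic factor CHOP, was at 293.9 to 436.8 and 299.1 to 368.0, a log2 difference of -0.13 that was 0.01 without wild-type mother 3. Trib3, a pseudokinase induced by CHOP and ATF4, was at -0.14, with a 95% interval from -0.74 to 0.46, and at 0.06 without ApoE-null mother 4.

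Of the 8 degradation and translocation genes 6 were negative, with a median of -0.09, and Sec61b and Derl2 had no overlap. Sec61b, a subunit of the channel through which new proteins enter the reticulum, had 2329.3, 2862.3 and 2175.1 in the wild-type mother group and 1761.9, 1717.6, 2029.4 and 1870.7 in the ApoE-null mother group. Wild-type mother 2 was the highest array here too. The log2 difference was -0.41 (SE 0.13; limma, adjusted p = 0.529), and -0.29 without that array. Derl2, a part of the channel for export to the proteasome, had 1108.6, 1178.8 and 1066.5 against 1030.5, 1035.6, 1027.8 and 1023.8. The ApoE-null mother arrays were almost identical and the groups were apart by a small margin only, and the log2 difference was -0.12, with a 95% interval from -0.38 to 0.14.

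Edem1, a lectin that marks misfolded glycoproteins for removal, had 662.8, 505.6 and 667.7 against 458.1, 486.4, 371.4 and 522.6. Only ApoE-null mother 4 reached into the range of the other group, above wild-type mother 2. Its log2 difference was -0.41, with a 95% interval from -0.78 to -0.04 (limma, adjusted p = 0.585), while a second Edem1 probe set showed no difference between the group means.

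Herpud1, a scaffold of the ubiquitin ligase complex, was the most variable member, with a highest signal 3.49 times its lowest. It had 661.9, 510.6 and 781.3 in the wild-type mother group and 298.3, 1041.4, 526.9 and 855.1 in the ApoE-null mother group, so that the highest and the lowest array were in the same group. Its log2 difference of -0.07 was 0.28 without ApoE-null mother 1 and -0.32 without ApoE-null mother 2. Syvn1, the ubiquitin ligase itself, and its adaptor Sel1l were at -0.16 and -0.07. Derl1 was at 0.08, and Derl3, which is typical of secretory cells and dim here (46.7 to 87.4), at 0.01, a sign that turned in 4 of the 7 fits that left out an array.

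On the wild-type mother arrays 22, 18 and 23 of the 32 genes lay above their own mean over the 7 arrays, and on the ApoE-null mother arrays 10, 19, 11 and 10. ApoE-null mother 2 therefore resembled the wild-type mother arrays in this count. ApoE-null mother 1 was the lowest array for 9 members, and its mean deviation over all members was -0.19 on the log2 scale, against -0.05 to 0.11 on the others. For Manf and Creld2 together the deviation of that array was -0.67. The members whose groups did not overlap had mean deviations of 0.18 to 0.35 on the wild-type mother arrays and -0.34 to -0.13 on the others, which their choice fixes.

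**Figure D4:**
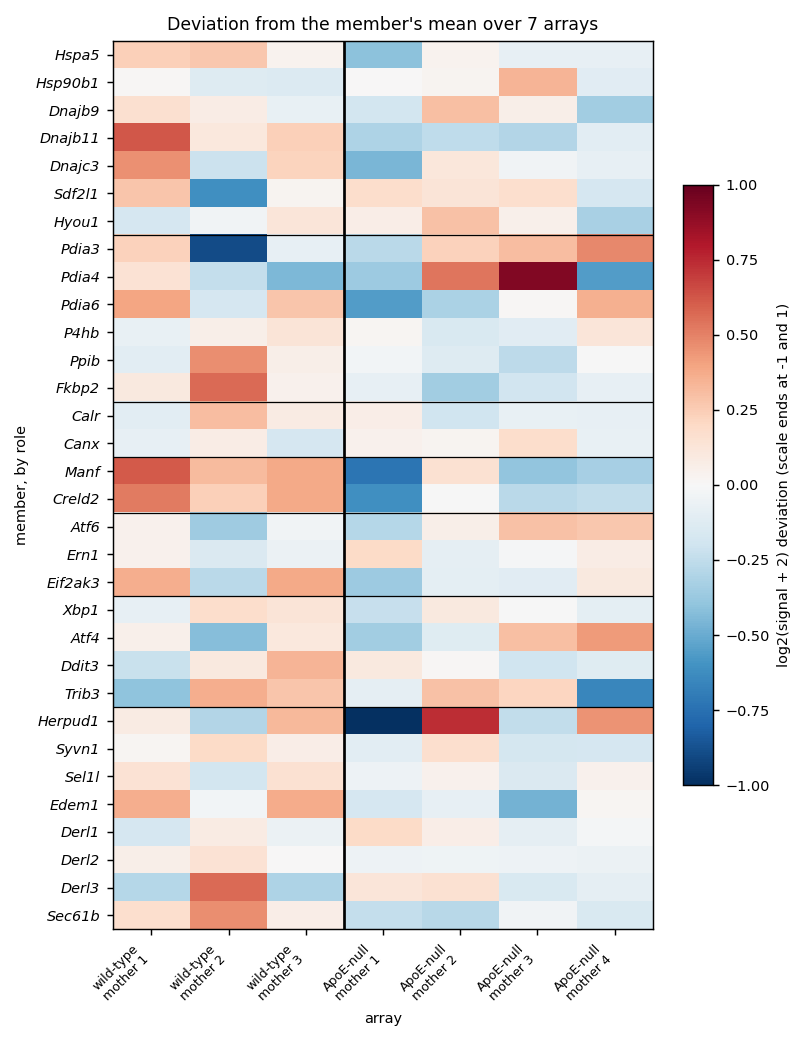
Deviation of each member on each array from its mean over the 7 arrays, in log2(signal + 2), with red above and blue below the mean; the vertical line separates the crosses. Manf, Creld2 and Dnajb11 are red on the left and mostly blue on the right, and ApoE-null mother 1 is the bluest column.

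Members with and without a stress element were set side by side. The 11 with either form had a median log2 difference of -0.17, from -0.66 to 0.15, with 8 negative. The 17 whose windows held neither had a median of -0.12, from -0.41 to 0.44, with 12 negative. The table had no promoter for Manf, Hyou1, Atf6 and Derl1, so Manf, at -0.76, is in neither class. Groups did not overlap for 2 of the 11 (Creld2 and Dnajb11) and 3 of the 17 (Fkbp2, Sec61b and Derl2). Of all 32 members 18.8% were lower without overlap, and of all genes kept 4.24%. A window counted as holding neither form had no exact match of the letters, which does not exclude an altered or more distant element. Hspa5 and Hsp90b1, which share the stress element, had log2 differences of -0.31 and 0.15.

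Another 140 genes of the pathway were taken from lists written from general knowledge with earlier results of these data known. Of these, 131 were kept. In limma 0 of them were called, 15 were lower and 1 higher at an unadjusted p under 0.05, and 89 were negative, with a median log2 difference of -0.10. Groups were apart and lower for 13 of them (9.92%) and apart and higher for 1 (0.763%). Over all genes kept these shares were 4.24% and 4.34%. At an unadjusted p under 0.05 (limma), 11.5% of the 131 genes were lower, against 4.22% of all genes kept. Negative were 67.9% against 51.2%. The lists were chosen with results known, so these excesses are a description.

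Carriers between the reticulum and the Golgi had the lowest median of these lists, -0.21, with 14 of 19 negative. Of the 19, 6 were lower without overlap (31.6%, against 4.24% of all genes kept). Sar1a, the GTPase that starts the coat of outgoing vesicles, had 2678.4, 2459.2 and 2988.8 in the wild-type mother group and 1966.6, 2061.0, 2013.5 and 2298.7 in the ApoE-null mother group. Its log2 difference was -0.38, and that of Arfgap3, which acts on returning vesicles, was -0.47 (limma, adjusted p = 0.523 for each). Sec24a and Sar1b were positive, at 0.12 and 0.10. Genes of N-glycosylation had a median of -0.17 with 14 of 16 negative. Alg2, a mannosyltransferase of the lipid-linked sugar, was at -0.59 and Dad1, a subunit of the oligosaccharyltransferase, at -0.38, both with overlapping groups, while Rpn2 and Tusc3 of the same complex were at 0.12 and 0.09.

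Translocon and signal peptidase genes had a median of -0.08 with 12 of 17 negative. Ssr2, a translocon-associated protein, had 769.2, 744.5 and 767.9 against 560.9, 528.3, 583.4 and 627.9, a log2 difference of -0.40 without overlap, and Tram1 was at -0.25 without overlap. Srp9 and Spcs1 were at 0.32 and 0.12. The other folding enzymes also had a median of -0.08. P4ha1, the catalytic subunit of the collagen prolyl hydroxylase, had 359.4, 223.8 and 369.2 against 125.9, 204.0, 173.4 and 240.4. ApoE-null mother 4 lay above wild-type mother 2, and the log2 difference was -0.77 (limma, adjusted p = 0.523). Txndc12, a small oxidoreductase, was at -0.43 without overlap, and Fkbp7 and Ero1a were at 0.23 and 0.18.

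The degradation machinery had a median of 0.02 with 9 of 19 negative. Rnf139 and Ufd1 were at 0.44 and 0.27, and Ubxn4 and Ube2g2 at -0.44 and -0.30. Partners of the stress sensors had a median of -0.05, with Nfe2l1 at -0.37 without overlap, Creb3l2 at -0.33, and Eif2ak4 and Ppp1r15b at 0.39 and 0.35. Targets of ATF4 and CHOP had a median of -0.15 and held genes of both signs. Cebpb, a transcription factor with many inputs besides stress, had 442.9, 425.5 and 450.2 in the wild-type mother group and 602.6, 683.5, 816.1 and 660.0 in the ApoE-null mother group, a log2 difference of 0.64 without overlap (limma, adjusted p = 0.418). Mthfd2, a mitochondrial folate enzyme, had 223.7, 213.8 and 217.2 against 153.1, 119.2, 173.2 and 130.5, a log2 difference of -0.61 without overlap (limma, adjusted p = 0.484). Slc7a5 was at 0.44 and Atf3 at -0.66, with overlap.

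**Figure D5:**
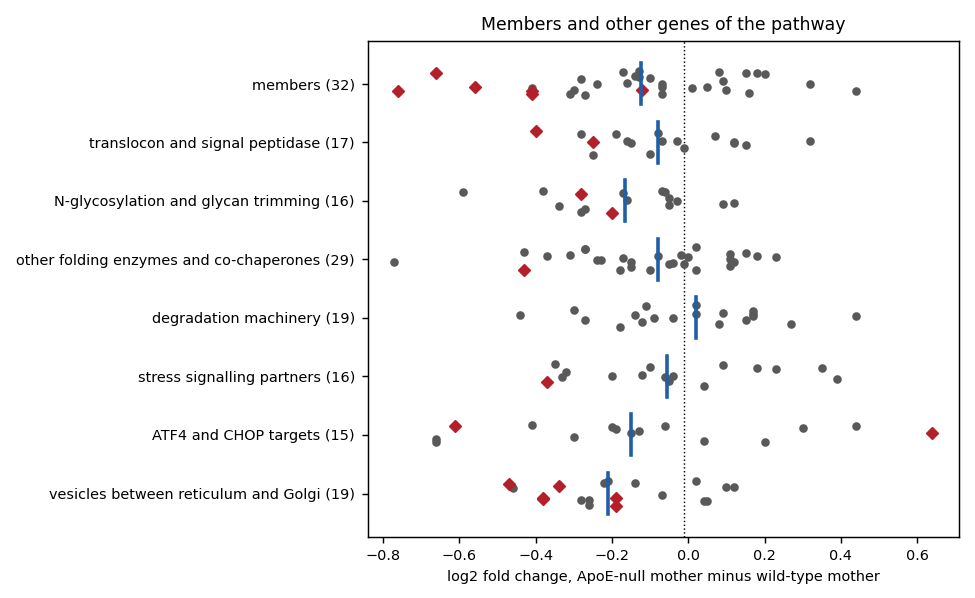
Log2 difference of each kept gene, 1 point a gene, for the members and 7 lists of other pathway genes, with the number of genes in brackets; blue bars are medians, red diamonds are genes whose groups did not overlap, and the dotted line is the median of all genes kept (-0.01). The vesicle list has the lowest median of the 7 lists (-0.21), and Cebpb is the diamond at 0.64.

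Markers of other cells differed between arrays, and in a dissected artery fewer cells of a type and less RNA per cell cannot be told apart. Thymocyte markers moved with the cross: 6 of 6 were positive, and their summed signals were 52.6 to 146.6 in the wild-type mother group and 398.3 to 661.5 in the ApoE-null mother group. Of the brown fat markers 4 of 4 were positive, with sums of 1297 to 7706 and 6129 to 10090. Ganglion and carotid body markers were negative in 6 of 6, with sums of 365.6 to 2781 and 323.5 to 915.2. The 2781 came from wild-type mother 1, and the other wild-type mother arrays had 920.4 and 365.6. Skeletal muscle markers were also negative in 6 of 6, with the high sum on wild-type mother 2 alone (2042, against 90.7 to 195.7). Schwann cell markers were negative in 3 of 3, with 1300 to 4510 and 535.6 to 2328. The part of these and the following cells in the values of the members was not tested.

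Markers of professional secretory cells, which are rich in these chaperones, were read as well. Of the 6 salivary markers, Amy1 and Klk1 exceeded the bacterial probe sets on all 7 arrays, Bhlha15 on 5, Aqp5 on 2, and Dcpp1 and Smr3a on none. Amy1 had 836.1, 584.9 and 305.7 in the wild-type mother group and 484.9, 771.6, 1041.4 and 814.3 in the other, a log2 difference of 0.50 with overlapping groups. Summed salivary markers were 489.4 to 976.9 and 706.8 to 1210, most of it from Amy1. Among thyroid markers Tshr and Slc5a5 exceeded the bacterial probe sets on all 7 arrays and Tg and Pax8 on 5, with sums of 97.7 to 148.6 and 88.1 to 125.1. Of the parathyroid markers Casr did so on 6 arrays and Pth on 0. Chondrocyte markers, with Col2a1 at background, had sums of 828.2 to 1078 and 600.8 to 905.9. Most of these sums came from 1 gene, Comp, at 723.0 to 959.6 and 479.7 to 812.3. Plasma cell markers, Derl3 among them, had sums of 215.8 to 366.2 in the wild-type mother group and 251.6 to 481.8 in the ApoE-null mother group, and 4 of 4 kept were positive. Fibroblast markers overlapped between the groups, at 18400 to 21200 and 18660 to 22670, as did endothelial markers, at 1112 to 1713 and 1405 to 1991.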

How the data were processed

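Each deposited value is an intensity on a linear scale, which the authors obtained with MAS5 and GCOS per the submitters' processing notes, with versions not given in the sources used here. Per the labels' protocols, RNA went through 2 cycles of oligo-dT amplification and biotin labelling. The arrays shared 1 trimmed mean, so the deposited scaling was kept. Signals became log2(signal + 2), the pseudocount being the rounded 10th percentile of all values. Such fold changes understate those of dim genes. The 64 control probe sets were left out, and 27027 of 45101 with a mean above the 40th percentile (23.6) were kept. Groups came from the cross in the labels. limma 3.58.1 under R 4.3.3 fitted the ApoE-null mother group less the wild-type mother group with an intensity trend and Benjamini-Hochberg adjustment at 0.05 over all kept probe sets. Intervals are at 95%. The number of arrays limits the precision. The steps were tested on simulated data. Symbols came from the platform annotation, and 0 changed through gene IDs. Bacterial background came from 27 probe sets. Members, lists and tests were chosen with earlier results of these data known. All members are accounted for. In each other pathway list up to 2 genes per direction with the smallest p were named. Further probe sets of single members were singled out after their values were seen. Alternatives were other pseudocounts, filters, normalizations, variance models and probe sets, and leaving out each array. Protein ends were not analysed here.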

Additional observations from a re-analysis of the deposited data

Results flagged for a closer look

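Sdf2l1, a partner of Dnajb11 in the lumen, had a signal of 72.0 on ApoE-null mother 4, far from the other 3 arrays of its group at 89.2 to 92.0. The gap to the nearest array was 0.86 of the group's range, above Dixon's 95% critical value for 4 samples. It was the 1 value so marked among the 32 members in the group of 4, and chance marks about 1 in 20 groups. Groups of 3 are not tested.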

How the results depend on the processing

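No paired analysis was possible because the labels give the groups no shared replicate numbers. Over 17 alternatives 0 members were called in limma. The lowest adjusted p of a member in any of them was 0.316, for Dnajb11. The members' median log2 fold change was -0.17 to -0.08 and the number positive 8 to 13, the lowest over only 26 members with an unmarked probe set. The number without overlap ranged from 6 to 12 on leaving out an array, which compares fewer arrays, and was 9 after quantile normalization (28.1%). Over all probe sets the share without overlap was 10.6% to 18.7% on leaving out an array and 8.52% after quantile normalization. Manf, Creld2, Dnajb11, Fkbp2 and Sec61b were negative and without overlap in all 17. Of the 32 members, 22 kept their sign in every alternative they were measured in. These alternatives averaged a gene's kept probe sets or took 1 of them. Of the 21 members with several kept probe sets, 10 had kept probe sets of both signs. Hspa5, Pdia3, Dnajc3, Canx, Sel1l and Derl1 are among both the 10 and the 22. Probe sets called over the whole array were 1 in the fit as reported, 2 after quantile normalization, 2 with array weights, 0 without an intensity trend and 0 to 18 on leaving out an array, the 18 being without wild-type mother 1. The cause of these changes was not tested. With 3 and 4 arrays the intervals of the members had a median half-width of 0.36 on the log2 scale. These intervals are not adjusted for the number of probe sets, and Manf at -0.76 was not called after adjustment.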
